A study of Homo sapiens with 6 samples.

Results

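The genes described are the urokinase-type plasminogen activator PLAU, its receptor PLAUR, the urokinase inhibitor SERPINB2, the matrix metalloproteinases MMP1, MMP10, MMP13, MMP7 and MMP9, and the metalloproteinase inhibitor TIMP1. They were chosen by symbol, as 9 of the 16390 genes listed in each count file, and all 9 were listed. SW780, a line grown from a human bladder tumour, stands for the luminal type in the study. RC48 (disitamab vedotin) is an antibody against ERBB2 that carries monomethyl auristatin E, a drug that blocks microtubules. The libraries are of total RNA, 3 from SW780 cells exposed to RC48 and 3 from Control cells without it. Both groups are the same line, the methods call the exposed cells stable, and the exposure time is not named in the sources used here. Nothing in the labels says that the libraries of a group came from separate cultures, so the p-values measure only the spread between these libraries.

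Urokinase bound to its receptor cuts plasminogen at the cell surface and releases plasmin, which degrades fibrin and matrix proteins and can activate the precursors of several metalloproteinases. The secreted metalloproteinases then cut collagens, laminins and other substrates, and tissue inhibitors such as TIMP1 bind to their active sites. In tumours of the bladder and other epithelia, the system is known for its part in invasion.

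MMP7, MMP10, MMP1 and MMP13 lie in 1 cluster of metalloproteinase genes on chromosome 11 (hg38, GENCODE v29), in the order given, all on the minus strand, over 435.2 kb from 102520508 to 102955734. The bases upstream of MMP7 and MMP10 are shown because they are alike in the placing of the motifs marked, while MMP7 was called higher after RC48 and MMP10 was not (the difference between them was not tested). Sequences are from RefSeq (GRCh38.p14), on the strand of the gene and 5′ to 3′, and the windows stop before the first annotated base of the gene, which for MMP7 lies upstream of the RefSeq start from which distances are counted, so that its last 6 bases before that start are not printed. Capitals mark a match to the AP-1 motif TGANTCA, the site of FOS and JUN dimers, and a TATAA box.
MMP7, chr11:102530754-102530997, minus strand: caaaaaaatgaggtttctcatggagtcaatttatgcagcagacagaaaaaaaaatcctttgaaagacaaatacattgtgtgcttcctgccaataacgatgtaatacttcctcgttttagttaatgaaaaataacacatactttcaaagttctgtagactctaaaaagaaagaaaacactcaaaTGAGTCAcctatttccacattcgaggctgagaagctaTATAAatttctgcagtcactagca
MMP10, chr11:102780629-102780878, minus strand: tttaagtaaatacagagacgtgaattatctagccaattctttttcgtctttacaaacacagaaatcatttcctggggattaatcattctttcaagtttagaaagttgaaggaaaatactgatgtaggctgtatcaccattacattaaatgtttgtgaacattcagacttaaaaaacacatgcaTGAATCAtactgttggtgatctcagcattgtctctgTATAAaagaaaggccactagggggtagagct

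In both windows the AP-1 match lay 67 to 61 bases upstream of the RefSeq start, with a TATAA box 30 to 26 bases upstream in MMP7 and 31 to 27 in MMP10. The AP-1 matches of PLAUR and SERPINB2 are shown with their flanks to compare their placing. Their distances are also from the RefSeq start, and both matches lie inside the span that GENCODE v29 annotates for the gene.
PLAUR, chr19:43670337-43670366, minus strand, 186 to 180 bases upstream: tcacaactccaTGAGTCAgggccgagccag
SERPINB2, chr18:63887592-63887621, plus strand, 102 to 96 bases upstream: gagtaaaatgtTGAATCActcaaaggacac

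RefSeq promoters were matched for 6 of the 9 genes at 7 starts, and 250 bases upstream of each were searched. The AP-1 motif reads the same on both strands. It was found for 4 of the 6 genes, at 1 start each, against 6.57% of all 35116 promoter windows of that length, and a TATAA box on either strand was found in 18.9% of all windows. Neither PLAU start nor that of TIMP1 held an AP-1 match or a TATAA box. The STAT motif TTCNNNGAA, present in 6.57% of all windows, and the NF-κB motif, present in 5.21%, were not found in any of the 7. A match is a run of letters and not a measured site, and its absence says only that these letters are not in the window.

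Estimated counts summed to between 16453233 and 17988030 per library, and levels below are in CPM, which divides counts by the TMM-normalized library size. Luminal marker genes summed to 761 to 776 CPM in Control and 696 to 867 CPM after RC48, with all 6 markers detected, although KRT20, a keratin of umbrella cells, fell by 1.55 on the log2 scale (quasi-likelihood test in edgeR, Benjamini-Hochberg adjusted p = 0.0489). FOXA1 had a log2 fold change of -0.44 and was not called (edgeR, adjusted p = 0.194). GATA3, ERBB2, UPK2 and PPARG had values above 0 and were not called. Basal markers summed to 333 to 352 CPM in Control and 310 to 343 CPM after RC48, with all 4 detected. CD44 made up most of this sum, at 321 to 338 CPM in Control and 287 to 331 CPM after RC48. The log2 fold changes were -0.08 for CD44, 0.45 for KRT5, -0.18 for KRT6A and 0.68 for KRT14, and none was called. The RC48 libraries differed from each other. The ratio of RC48 replicate 1 to Control rose with the GC content of the transcripts across 13000 genes (Spearman's rho 0.735, a description). That of RC48 replicate 3 rose too (0.564), while replicate 2 showed no such trend (-0.0096). For the 7 members tested, values are therefore also given from a fit that removed the GC trend of every library, and for other genes named where that fit changed a call or a sign. Over all 13055 genes tested the median log2 fold change was 0.016. TMM scaling holds this median near 0, so it does not show whether RNA levels shifted as a whole.

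PLAU RNA rose 2.54-fold after RC48, and MMP7 RNA rose from near 0 to a low level. In bulk RNA, more RNA per cell and more cells making it cannot be told apart. Among the 7 members that passed the filter on low counts, PLAU and MMP7 rose after RC48, none fell, and 5 did not pass the test. Of all genes tested, 1.98% were called higher and 0.23% lower (2.21% in all). MMP7 passed the filter only through its RC48 libraries, so the count is a description of single genes and not of the group. The median log2 fold change of the 7 was 0.51, a description that leaves out SERPINB2 and MMP9, and SERPINB2 had a value of -0.59 in the fit without the filter. Counted by levels alone among the 7, PLAU, PLAUR, MMP1 and MMP7 did not overlap between the groups and were higher after RC48, as 17.4% of all genes tested were. MMP9, not tested, did not overlap either, at 1 count in each Control and 2 in each RC48 library.

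**Figure D1:**
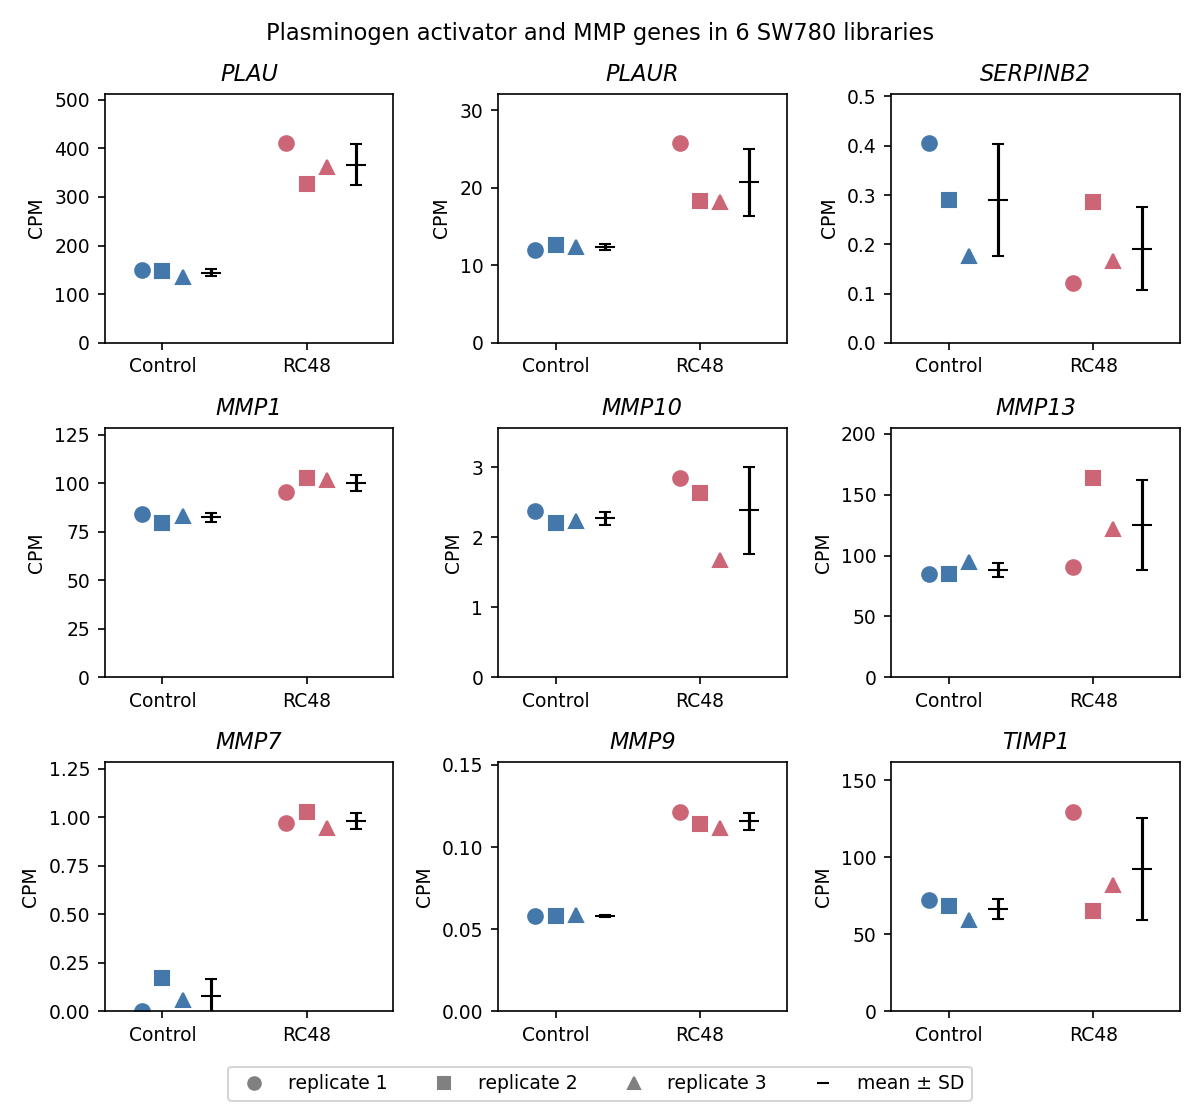
Each panel plots the CPM of 1 gene (y axis, from 0) in the 3 Control and 3 RC48 libraries, with a symbol per replicate number and the mean ± SD beside them. The RC48 libraries lie clear of Control in PLAU, PLAUR, MMP1 and MMP7, and the groups overlap in MMP10, MMP13 and TIMP1. SERPINB2 and MMP9 rest on 7 or fewer counts per library.

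PLAU (ENSG00000122861.15, chromosome 10, 73909177 to 73917497, plus strand) encodes urokinase, the secreted protease that converts plasminogen to plasmin. It stood at 149, 147 and 136 CPM in Control replicates 1, 2 and 3, and at 410, 326 and 362 CPM in RC48 replicates 1, 2 and 3. All 3 RC48 libraries were above all 3 Control libraries, with replicate 1 the highest. Control libraries averaged 144.1 ± 7.23 CPM and RC48 libraries 366 ± 42.0 CPM (SD, n = 3 each), a 2.54-fold rise with a 95% interval of 2.07 to 3.11. The log2 fold change was 1.34 with a standard error of 0.13 (quasi-likelihood test in edgeR, Benjamini-Hochberg adjusted p = 0.0018). The exact two-sided permutation test over libraries gave p = 0.1, the smallest that 3 against 3 allows. PLAU was called in all 18 alternative fits, with an adjusted p of at most 0.0355, and the rise was 2.2-fold with the GC correction (edgeR, adjusted p = 0.000113). The files do not list C10orf55, annotated on the opposite strand over PLAU, and whether counting used strand is not given in the sources used here.

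PLAUR (ENSG00000011422.11, chromosome 19, 43646095 to 43670547, minus strand) encodes the membrane-anchored receptor that holds urokinase at the cell surface. Its level was 11.97, 12.7 and 12.4 CPM in Control and 25.8, 18.3 and 18.2 CPM in RC48 replicates 1, 2 and 3. The groups did not overlap, and the spread after RC48 came from replicate 1 alone, since the other two nearly coincided. Its log2 fold change of 0.75 (SE 0.17, 95% interval 0.34 to 1.15) did not pass the test (quasi-likelihood test in edgeR, Benjamini-Hochberg adjusted p = 0.0863). Without RC48 replicate 1 the log2 fold change was smaller, at 0.56, and passed (edgeR, adjusted p = 0.0145), and without RC48 replicate 2 it was 0.83 (edgeR, adjusted p = 0.0221). With the GC correction it was 0.51 (edgeR, adjusted p = 0.0225), but that call held in 2 of 6 fits that also left out 1 library: it was kept without RC48 replicate 1 or 2 and lost without RC48 replicate 3 (edgeR, adjusted p = 0.0513) or any Control library (0.0828 to 0.135). Of 18 alternatives, 6 called PLAUR.

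SERPINB2 (ENSG00000197632.8, chromosome 18, 63871692 to 63903890, plus strand) encodes plasminogen activator inhibitor type 2, which inhibits urokinase. It was barely detected, with 7, 5 and 3 counts in Control and 2, 5 and 3 counts after RC48. The groups overlapped, and the filter left it out. Summed counts of 15 and 10 gave a ratio of RC48 to Control of 0.662, with an exact 95% interval of 0.266 to 1.57 that covers counting error only, so no difference was detectable at this depth.

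MMP1 (ENSG00000196611.4, chromosome 11, 102789920 to 102798160), an interstitial collagenase, was among the more abundant metalloproteinases here. It stood at 84.0, 79.7 and 83.3 CPM in Control and at 95.5, 102.9 and 101.9 CPM in RC48 replicates 1, 2 and 3. The groups did not overlap, and the gap was small, with means of 82.3 ± 2.33 and 100.1 ± 3.99 CPM (SD, n = 3 each). The log2 fold change of 0.28 (SE 0.11, 95% interval 0.030 to 0.53) did not pass the test (quasi-likelihood test in edgeR, Benjamini-Hochberg adjusted p = 0.235). With the GC correction it was 0.52 and passed (edgeR, adjusted p = 0.0388), and that call was kept without RC48 replicate 1 or 2 and lost without RC48 replicate 3 (edgeR, adjusted p = 0.129) or any Control library (0.141 to 0.156).

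MMP10 (ENSG00000166670.9, chromosome 11, 102770503 to 102780628), stromelysin-2, is the neighbour of MMP1. It had 41, 38 and 38 counts in Control and 47, 46 and 30 counts in RC48 replicates 1, 2 and 3, or 2.37, 2.20 and 2.24 CPM against 2.85, 2.63 and 1.67 CPM. Replicate 3 was below and the other RC48 libraries above every Control library. The log2 fold change was 0.07 (SE 0.24, 95% interval -0.50 to 0.63), and its sign turned in 7 settings, including the fit without RC48 replicate 1 (-0.09) and that without RC48 replicate 2 (-0.01). MMP10 did not pass the test (quasi-likelihood test in edgeR, Benjamini-Hochberg adjusted p = 0.865).

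MMP13 (ENSG00000137745.11, chromosome 11, 102942995 to 102955734), collagenase-3, varied most between the RC48 libraries among the abundant metalloproteinases. It stood at 84.8, 84.5 and 94.4 CPM in Control and at 90.3, 164.1 and 121.5 CPM in RC48 replicates 1, 2 and 3. RC48 replicate 1 lay within the Control range, and replicate 2 was 1.87 times the Control mean. The log2 fold change of 0.51 (SE 0.21, 95% interval 0.025 to 1.00) did not pass the test (quasi-likelihood test in edgeR, Benjamini-Hochberg adjusted p = 0.25). Without RC48 replicate 1 it was 0.69 and passed (edgeR, adjusted p = 0.0048), and without RC48 replicate 2 it was 0.27 and did not (edgeR, adjusted p = 0.205). With the GC correction it was 0.69 (edgeR, adjusted p = 0.0052), and that call was kept in all 6 corrected fits without 1 library (edgeR, adjusted p at most 0.0465).

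MMP7 (ENSG00000137673.8, chromosome 11, 102520508 to 102530753), matrilysin, lacks the hemopexin domain of the other metalloproteinases here and is mostly made by epithelial cells. It had 0, 3 and 1 counts in Control and 16, 18 and 17 counts in RC48 replicates 1, 2 and 3. The RC48 libraries were all above Control and close to each other, at 0.972, 1.03 and 0.946 CPM, a level still far below that of MMP1. Summed counts rose from 4 to 51, a ratio of 12.7 with an exact 95% interval of 4.65 to 48.2 that covers counting error only. The fitted log2 fold change was 3.54 (SE 0.57), and it passed (quasi-likelihood test in edgeR, Benjamini-Hochberg adjusted p = 0.0223). The size rested on those 4 Control counts, and it ran from 2.99 without Control replicate 1 to 4.76 without Control replicate 2, and was 1.28 on the log2(TPM+1) scale in limma. The call was lost without Control replicate 1 (edgeR, adjusted p = 0.0759), Control replicate 3 (0.179) or RC48 replicate 3 (0.103), and kept in 14 of 17 alternatives, the GC correction included (edgeR, adjusted p = 0.00765).

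MMP9 (ENSG00000100985.7, chromosome 20, 46008908 to 46016561, plus strand), gelatinase B, had 1 count in each Control library and 2 counts in each RC48 library. Each single library is under the 3 counts that a count of 0 allows, so no fold is given and no difference was detectable at this depth.

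TIMP1 (ENSG00000102265.11, chromosome X, 47582313 to 47586789, plus strand, within SYN1 on the other strand) inhibits most of the secreted metalloproteinases. It stood at 72.0, 68.2 and 59.6 CPM in Control and at 129.6, 65.4 and 82.0 CPM in RC48 replicates 1, 2 and 3. RC48 replicate 1 was far above replicate 2, which lay inside the Control range. The log2 fold change of 0.47 (SE 0.24, 95% interval -0.094 to 1.04) did not pass the test (quasi-likelihood test in edgeR, Benjamini-Hochberg adjusted p = 0.299). It was 0.67 without RC48 replicate 2, where it passed (edgeR, adjusted p = 0.0406), 0.14 without RC48 replicate 1, and 0.15 with the GC correction (edgeR, adjusted p = 0.486).

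**Figure D2:**
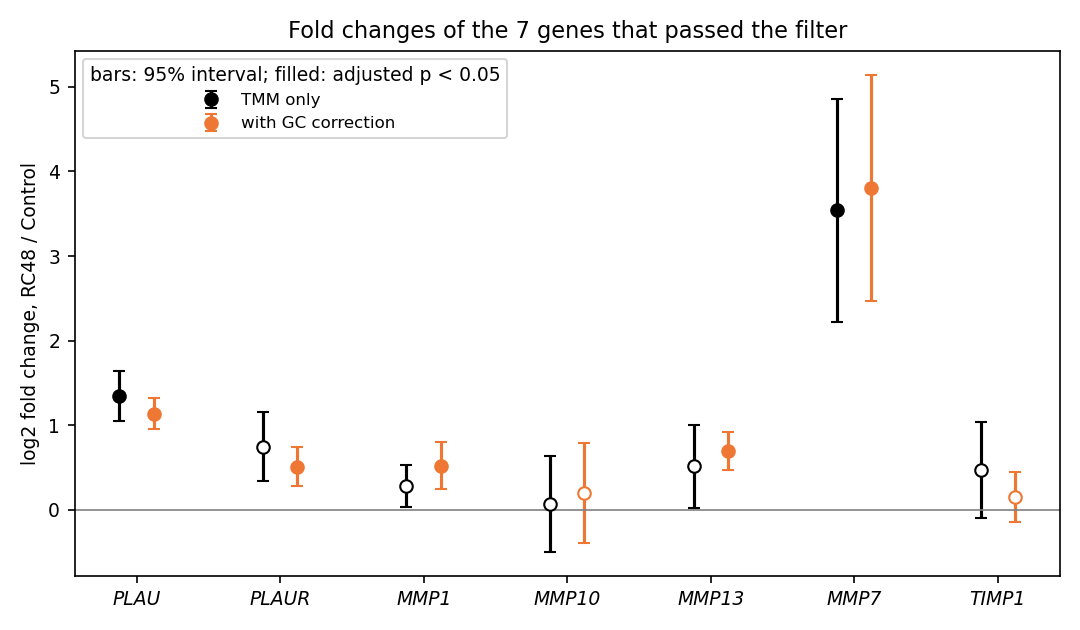
Points give the log2 fold change of RC48 over Control (y axis) for the 7 genes that passed the filter, from edgeR with TMM scaling (black) and with the GC correction added (orange), with bars for the 95% interval and filled points for an adjusted p under 0.05. PLAU and MMP7 are filled in both, PLAUR, MMP1 and MMP13 only with the correction, and MMP10 and TIMP1 in neither.

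The correction moved the members in opposite directions according to their GC content, so the order of the RC48 libraries is given beside it. Transcripts of PLAU (55.0% GC), PLAUR (55.9%) and TIMP1 (58.1%) lay above the median of 49.9% over all genes tested, and all 3 genes were highest in RC48 replicate 1. MMP1 (43.4%) and MMP13 (43.6%) lay below it, and both were lowest in that replicate. MMP10 (45.5%) went against this order, being highest in replicate 1, and MMP7 (42.0%) had its middle value there. The correction lowered the log2 fold changes of PLAU, PLAUR and TIMP1 (to 1.14, 0.51 and 0.15) and raised those of MMP1, MMP13, MMP10 and MMP7 (to 0.52, 0.69, 0.19 and 3.81). With it, 5 members were called, all higher, where 7.02% of all genes tested were called, 3.98% higher and 3.03% lower.

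**Figure D3:**
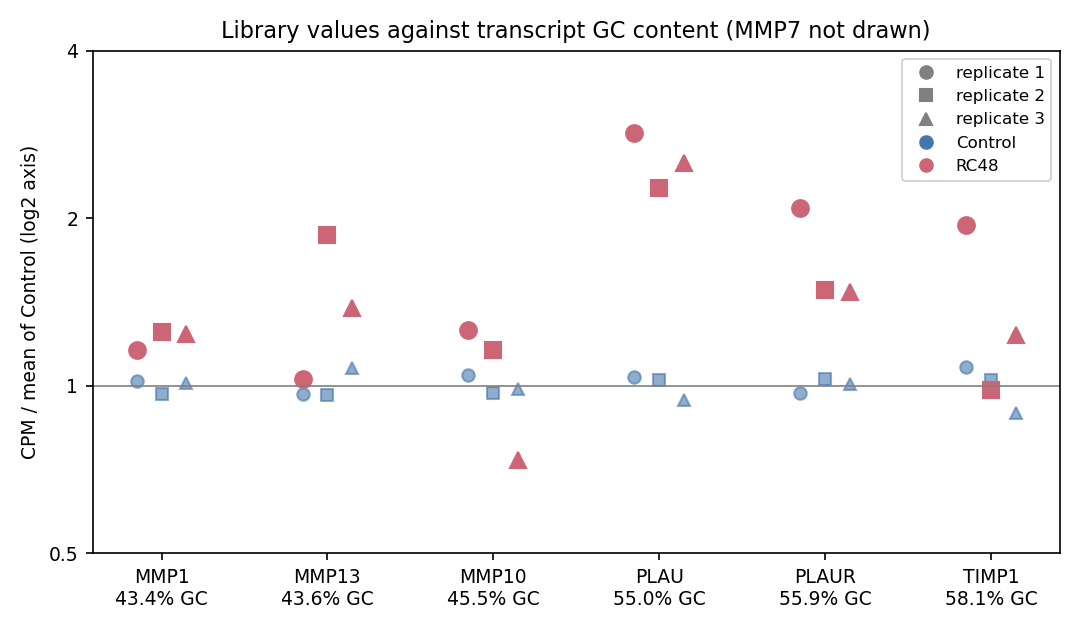
Each point is the CPM of a gene in 1 library divided by the mean of the Control libraries (y axis, log2 scale), for 6 genes ordered along the x axis by transcript GC content, with Control in blue, RC48 in red and a symbol per replicate. RC48 replicate 1 is the highest RC48 library in PLAU, PLAUR and TIMP1 and the lowest in MMP1 and MMP13. MMP7 is not drawn because 1 Control library had 0 counts.

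Levels are compared between genes as TPM, a share of all transcripts that accounts for gene length. The TPM of RC48 replicate 2 is computed rather than deposited. In Control the order of mean TPM was TIMP1 (258.2 ± 12.5), PLAU (124.3 ± 0.952), MMP1 (87.3 ± 6.16), MMP13 (64.4 ± 7.75), PLAUR (20.8 ± 1.53) and MMP10 (2.76 ± 0.154; SD, n = 3 each). These 6 did not overlap with their neighbours in the order. SERPINB2 (0.317), MMP7 (0.17) and MMP9 (0.05) followed, and the range of MMP7 (0 to 0.37) overlapped with both others. After RC48, TIMP1 stood at 303.3 ± 64.2 TPM and PLAU at 297.8 ± 9.27 TPM, and these no longer separated. MMP1 (100.4 ± 12.6) and MMP13 (88.7 ± 33.4) overlapped too, as did MMP10 (2.72 ± 0.716) and MMP7 (1.95 ± 0.252).

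The TPM of PLAU was 5.56 to 6.46 times that of PLAUR in the Control libraries, and 8.50, 9.26 and 10.3 times in RC48 replicates 1, 2 and 3. The ratio was higher in every RC48 library than in any Control library, replicate 1 included.

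The 5 metalloproteinases summed to 149.4, 144.5 and 170.4 TPM in Control and to 149.9, 242 and 189.6 TPM in RC48 replicates 1, 2 and 3. The groups overlapped through RC48 replicate 1. MMP1 and MMP13 supplied 96.8% to 98.2% of the sum in every library, so MMP7 had little weight in it. The sum divided by the TPM of TIMP1 was 0.549 to 0.687 in Control and 0.401, 0.976 and 0.658 in RC48 replicates 1, 2 and 3, with RC48 libraries both below and above the Control range.

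Around the metalloproteinase cluster, a window of 500 kb on either side of MMP7 to MMP13 held 16 annotated genes, of which 13 were listed and 12 tested. MMP7 and BIRC3 were called, both higher, where 2.21% of all genes tested were called. With the GC correction BIRC2, MMP1 and MMP13 were called higher as well, where 7.02% of all genes tested were called. The window was drawn up after the design was fixed. BIRC3, an inhibitor of apoptosis and a known NF-κB target, had 41, 32 and 27 counts in Control and 199, 329 and 287 counts in RC48 replicates 1, 2 and 3, a log2 fold change of 3.01 (quasi-likelihood test in edgeR, Benjamini-Hochberg adjusted p = 0.00095). MMP12, macrophage elastase, lies between MMP1 and MMP13 and had a log2 fold change of -0.02 (edgeR, adjusted p = 0.943), and of 0.36 with the GC correction. MMP3, stromelysin-1, had 3 to 10 counts in any library and was not tested.

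Of 22 other genes of the plasminogen system, 21 were listed, 17 were tested and none was called by edgeR (6 at an unadjusted p under 0.05, and 3 called by DESeq2), with 13 of the 17 log2 fold changes above 0 and a median of 0.34 against 0.016 over all genes. Over all genes tested, 19.1% had an unadjusted p under 0.05 in edgeR and 51.4% had a log2 fold change above 0, and DESeq2 called 744. The same background applies to the lists below. The 4 listed plasminogen system genes left out by the filter had 0 to 7 counts in any library. With the GC correction the median was 0.16, and ANXA2 and SERPINE2 were called, both higher. The most abundant were ENO1, a plasminogen-binding enzyme (log2 fold change 0.11), ANXA2, a cell-surface co-receptor of plasminogen (0.43), and SPINT2, an inhibitor of serine proteases (0.27). ENO1 and SPINT2 turned sign with the GC correction (-0.063 and -0.017). PLAT, the tissue-type activator, had a log2 fold change of 0.48 (edgeR, adjusted p = 0.195). It stood at 1304, 880 and 961 CPM in RC48 replicates 1, 2 and 3, against 738 to 766 CPM in Control, with no overlap. PLAT is named as the other plasminogen activator, outside the rule for named genes.

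Of 18 other metalloproteinases, 14 were listed, 9 were tested and none was called by edgeR (4 at an unadjusted p under 0.05, and 2 called by DESeq2), with a median log2 fold change of 0.37 (0.19 with the GC correction) and 7 values above 0. MMP14, the membrane-type enzyme that activates the MMP2 precursor, was the most abundant at 481 ± 8.91 CPM in Control and 767 ± 158 CPM after RC48. Its log2 fold change of 0.67 did not pass the test (edgeR, adjusted p = 0.0878) and was 0.36 with the GC correction, where it passed (edgeR, adjusted p = 0.0257). MMP2, gelatinase A, and MMP28, epilysin, had log2 fold changes of 0.48 and 0.23 and were not called, and that of MMP28 was -0.056 with the GC correction. The 5 listed genes left out had 0 to 13.8 estimated counts in any library. Of the other metalloproteinase inhibitors, TIMP3 (0.02), TIMP2 (0.46) and RECK (-0.22) were tested and not called by edgeR, with or without the GC correction (1 at an unadjusted p under 0.05, and 1 called by DESeq2).

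Of 14 ADAM and ADAMTS genes, 10 were tested and ADAM19, a membrane-bound sheddase, rose. Control libraries averaged 64.2 ± 7.27 CPM and RC48 libraries 123 ± 10.4 CPM (SD, 3 libraries each), for a log2 fold change of 0.94 (quasi-likelihood test in edgeR, Benjamini-Hochberg adjusted p = 0.0136). The call was lost without any 1 of the Control libraries (edgeR, adjusted p = 0.134, 0.124 and 0.0619 for replicates 1, 2 and 3) or without RC48 replicate 3 (0.0965), and kept with the GC correction. The median of the list was 0.16, and ADAM10, the most abundant gene of the list, had a log2 fold change of -0.30 that did not pass (edgeR, adjusted p = 0.362). ADAM9 and ADAM15, next in abundance, had log2 fold changes of 0.07 and 0.22 and were not called. That of ADAM15 was -0.14 with the GC correction, also not called.

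Of 20 matrix and basement membrane substrates, 19 were tested and 2 were called, both higher. Values are given for LAMA3, which encodes a laminin chain of epithelial basement membranes. LAMA3 rose from 221.4 ± 19.0 CPM in Control to 414 ± 19.7 CPM (SD over 3 libraries), for a log2 fold change of 0.90 (edgeR, adjusted p = 0.0083), lost without Control replicate 1 (0.0976), Control replicate 2 (0.0957) or RC48 replicate 3 (0.0831). LAMB3, another laminin chain, stood at 753 to 760 CPM in Control and at 1997, 1091 and 1371 CPM in RC48 replicates 1, 2 and 3. Its log2 fold change of 0.97 did not pass (edgeR, adjusted p = 0.0688), but passed with the GC correction at 0.64 (edgeR, adjusted p = 0.0076), without RC48 replicate 1 (0.0012) and without RC48 replicate 2 (0.0069). The median over the list was 0.36 (0.11 with the GC correction). SDC1, a heparan sulfate proteoglycan, had a log2 fold change of -0.36 that did not pass (edgeR, adjusted p = 0.17). With the GC correction it was -0.67 and was called lower (edgeR, adjusted p = 0.0104), the 1 substrate of the 5 then called that was lower. LAMA5 had a log2 fold change of 0.50 (edgeR, adjusted p = 0.305).

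Of 12 clade B serpins, the relatives of SERPINB2, 5 were tested and none was called by edgeR (1 at an unadjusted p under 0.05, and 1 called by DESeq2), with a median log2 fold change of -0.25. SERPINB5, maspin, the most abundant, stood at 196.6 ± 3.18 CPM in Control and 165.3 ± 47.2 CPM after RC48 (SD, n = 3 each). SERPINB6 and SERPINB8 had log2 fold changes of 0.15 and 0.53. SERPINB8 was called in 7 of 18 alternatives, the GC correction included (edgeR, adjusted p = 0.0057).

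Of 20 transcription factors with known sites in promoters of metalloproteinase or urokinase genes, 19 were tested and 4 were called, all higher. RELB, a subunit of non-canonical NF-κB, stood at 7.75, 9.68 and 7.65 CPM in Control and at 82.5, 50.1 and 62.6 CPM in RC48 replicates 1, 2 and 3, a log2 fold change of 2.96 (quasi-likelihood test in edgeR, Benjamini-Hochberg adjusted p = 0.00064). NFKB2, its partner, rose from 25.9 ± 2.64 CPM in Control to 104.8 ± 22.7 CPM (SD over 3 libraries), for a log2 fold change of 2.02 (edgeR, adjusted p = 0.0018). Both were called in all 18 alternatives. JUN, a component of AP-1, rose by 0.65 on the log2 scale (edgeR, adjusted p = 0.0267) and STAT3 by 0.61 (edgeR, adjusted p = 0.044). Each of these 2 calls was lost without any 1 of the Control libraries or without RC48 replicate 3 (edgeR, adjusted p from 0.159 to 0.24 for JUN and from 0.118 to 0.309 for STAT3). With the GC correction JUN had a log2 fold change of 0.42 and did not pass (edgeR, adjusted p = 0.112), whereas STAT3 did. The most abundant AP-1 genes, FOS and FOSB, had log2 fold changes of -0.19 each without the correction and of -0.49 and -0.51 with it, when both were called lower (edgeR, adjusted p = 0.0291 and 0.0122). JUNB had a log2 fold change of 0.26 (edgeR, adjusted p = 0.279), and of -0.030 with the correction.

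**Figure D4:**
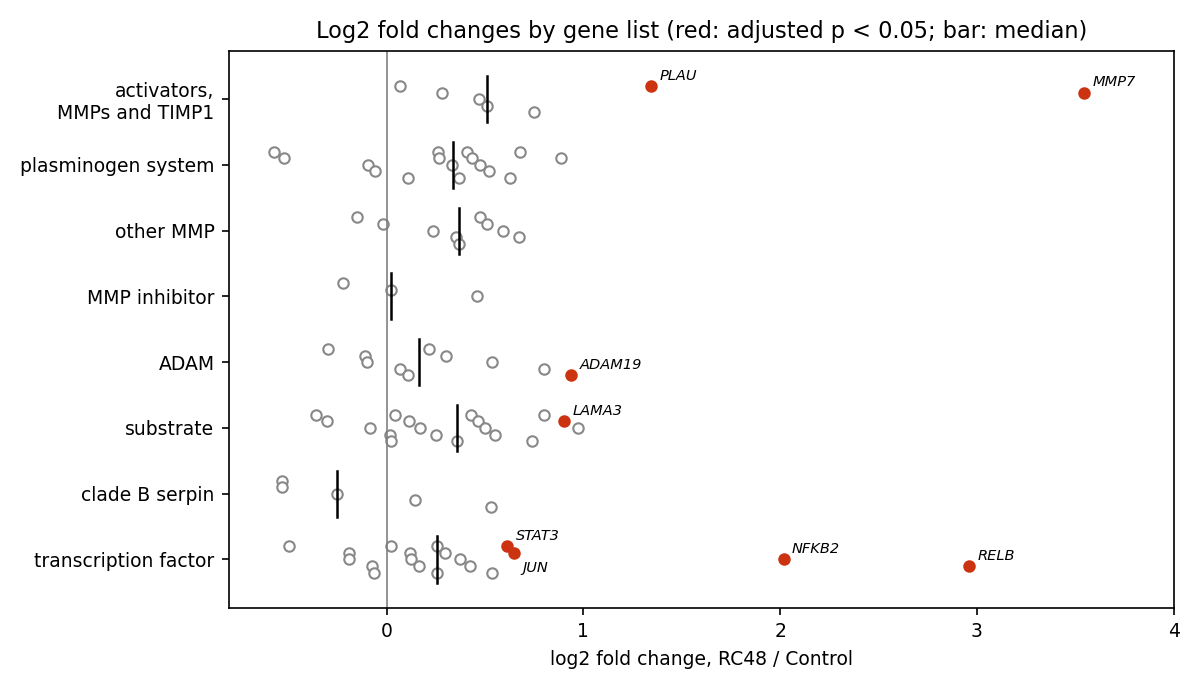
Each point is the log2 fold change of RC48 over Control (x axis) of 1 tested gene, in rows for the 7 members that passed the filter and for 7 related gene lists, red where the adjusted p was under 0.05, with a bar at the median. Genes not reported here are not drawn, though the medians include them. The called genes drawn are PLAU, MMP7, ADAM19, LAMA3, STAT3, JUN, NFKB2 and RELB, all to the right of 0.

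Across the 6 libraries, the log2 CPM of PLAU was most like that of ICAM1, an adhesion molecule (Pearson's r 0.9997), NFKB2 (0.999) and CDKN1A, a cell cycle inhibitor (0.998), out of 13048 genes compared. For MMP7 the 3 most alike were TRAF6 (0.985), LIPK (0.982) and FLI1 (0.982). These values are descriptions over 6 points in 2 groups that share depth, scaling and treatment. Among the members, PLAUR (0.948) and MMP1 (0.916) were most like PLAU, and MMP10 least (0.10).

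Markers of other cells were checked, since leukocytes and fibroblasts also make these proteases. Leukocyte markers summed to 5.65 to 6.65 CPM in Control and 11.9 to 15.7 CPM after RC48, with 9 of 10 listed and TYROBP at 0 or not listed. LAPTM5 held the most of these counts, with 270 summed in Control and 369 after RC48. ITGAM alone was called, from 5 to 188 summed counts, while PTPRC, the pan-leukocyte marker, had 0 counts in Control and 2 after RC48. Fibroblast markers summed to 447.7 to 478.4 CPM in Control and 452.5 to 568.5 CPM after RC48, with 8 of 9 listed, COL1A2 at 0 or not listed and FAP called higher (log2 fold change 1.31, edgeR, adjusted p = 0.0128). LUM, from the same list, ran from 165.6 to 171.2 CPM in Control and from 67.9 to 114.1 CPM after RC48 and was not called (log2 fold change -0.86, edgeR, adjusted p = 0.069). COL3A1, the most abundant of the list, ran from 263.1 to 299.3 CPM in Control and from 357.3 to 446.3 CPM after RC48. It was not called (log2 fold change 0.55, edgeR, adjusted p = 0.084), but was called higher with the GC correction (0.56, edgeR, adjusted p = 0.0101). COL3A1 and LUM made up most of the fibroblast sum, while DCN, PDGFRA, PDGFRB and THY1 had at most 4 summed counts in either group. Endothelial markers summed to 27.9 to 29.7 CPM in Control and 18.4 to 24.9 CPM after RC48. The part of the markers that moved in the results for PLAU and MMP7 was not tested.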

How the data were processed

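RNA of SW780 cells was sequenced in 6 libraries, 3 Control and 3 RC48, grouped by their labels. The authors used SOAPnuke to filter reads, Bowtie2 to map them and RSEM to quantify genes (versions not given in the sources used here). The submitters' processing notes name build hg38. The deposited values are estimated counts per gene without normalization (11.7% to 15.0% per library not whole) and TPM computed by the authors. TPM of RC48 replicate 2 was derived here, dividing its counts by effective lengths inferred from the other libraries. Done for RC48 replicate 3, this came within a median of 0.0099 (log2) of the deposited TPM over 11982 genes.

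Estimated counts were rounded, filtered with filterByExpr, TMM-normalized and compared by the quasi-likelihood test of edgeR (two-sided, Benjamini-Hochberg over 13055 genes, threshold 0.05; R 4.3.3, edgeR 4.0.16). The authors' limma on log2(TPM+1) was an alternative because counts cover all 6 libraries. The other alternatives were log2(TPM+0.1), voom with quality weights (limma 3.58.1), DESeq2 1.42.0, no filter, a minimum of 10 counts in every library, RLE factors, library sizes alone, a GC correction (loess offset, span 0.3, GC from GENCODE v29 transcripts for 16289 genes), a replicate block with and without it, and each library left out. The GC correction with each library left out, and levels without each library, were added after seeing the data. The procedure was checked on simulated counts with the same spread for every gene and no GC trend. That check does not cover libraries with a GC trend or changes in genes as low as MMP7. Totals differed by 1.09 times at most, and intervals on counts cover counting error only.

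The members and lists were chosen with earlier results of these data known. Named are all members, list genes called by the test, the 3 most abundant tested genes of each list with their values, and the 3 genes closest in pattern to a called member. Other genes named were chosen after their values were seen, and 2 genes of the lists are not reported here. Scripts used Python 3.11.15 with pandas 2.3.3, scipy 1.17.1 and matplotlib 3.10.9.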

Additional observations from a re-analysis of the deposited data

How the results depend on the processing

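PLAU kept its rise and its call in all 18 alternatives, with log2 fold changes of 1.14 to 1.42. Counts of called genes are given in the order all genes, members, plasminogen system, other metalloproteinases, inhibitors, ADAM, substrates, serpins and transcription factors, and were 288, 2, 0, 0, 0, 1, 2, 0 and 4. DESeq2 called 744, 3, 3, 2, 1, 1, 7, 1 and 7. The GC correction called 916 (520 higher), 5, 2, 1, 0, 1, 5, 1 and 8. Voom with quality weights called 8018, 7, 12, 7, 1, 5, 15, 4 and 14. Limma on log2(TPM+1) over 5 libraries called 2711 genes, with 3 members, then 2, 2, 0, 2, 6, 2 and 5. At least 10 counts in every library left out MMP7 and called 1 member. Library sizes alone and limma over 6 libraries (both pseudocounts) called 2 transcription factors each, and log2(TPM+0.1) called 1 substrate.

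MMP10 turned sign in limma (-0.035 and -0.15 on log2(TPM+1) over 6 and 5 libraries, -0.056 on log2(TPM+0.1)), voom (-0.42, the 1 alternative that called it lower, adjusted p = 0.014), without RC48 replicate 1 (-0.089, and -0.069 with the GC correction) and without RC48 replicate 2 (-0.014). Without 1 library it ranged from -0.089 to 0.25 (0.247 without RC48 replicate 3). The cause was not tested.

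Leaving out each library gave 68 (without Control replicate 3) to 3726 genes (without RC48 replicate 2), 1 to 4 members (2 to 5 with the GC correction), 0 to 8 genes of the plasminogen system, 0 to 3 other metalloproteinases, 0 to 1 inhibitors, 0 to 2 ADAM genes, 1 to 9 substrates, 0 to 2 serpins and 2 to 9 transcription factors. Tested members whose levels did not overlap numbered 4 to 5. The summed metalloproteinase TPM after RC48 was 193.8, and 169.8 without RC48 replicate 2.

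The replicate numbers did not pair the libraries (correlations of same-numbered deviations -0.013, -0.116 and 0.0183). With the replicate block 331 genes and 2 members were called, with 2 transcription factors. The block with the GC correction called 677 genes, 4 members, 1 gene of the plasminogen system, 5 substrates and 1 serpin. Depth limits SERPINB2, MMP9 and the size of the change in MMP7.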
